A study of Mus musculus with 6 samples.

Results

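The 53 genes of central carbon metabolism described here were followed through epithelial-mesenchymal transition and its reversal in EpH4, a near-normal mouse mammary epithelial cell line. They were taken from a list of gene names covering the transporters, enzymes and regulators of glycolysis, the pentose phosphate pathway, pyruvate oxidation and the TCA cycle. All 53 were among the 17428 genes of the deposited table, and 51 of them were among the 13893 genes with enough coverage to be tested. E cells were EpH4 cells never exposed to TGFβ1, M cells had grown with TGFβ1 for 7 days, and RE cells had been treated in the same way and then kept without TGFβ1 for another 4 days. Each state was sequenced in 2 libraries described as biological replicates. All cells came from a single line kept in culture, and no untreated culture of the same age as the RE cells was analysed here, so time in culture and TGFβ1 history cannot be told apart.

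Glycolysis splits glucose into pyruvate in the cytosol, first through phosphorylated hexoses and then through trioses. The pentose phosphate pathway branches off at glucose 6-phosphate and gives NADPH and ribose 5-phosphate. Pyruvate either becomes lactate or enters mitochondria, where the pyruvate dehydrogenase complex turns it into acetyl-CoA and pyruvate carboxylase into oxaloacetate, both of which feed the TCA cycle. Several steps have isoenzymes encoded by separate genes, and the pyruvate dehydrogenase kinases switch the dehydrogenase complex off. The mammary epithelium draws on the same routes for energy and, in lactation, for lactose and fat.

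Levels are given in ppm, the normalized coverage of a gene relative to the library total, without correction for length unless given per kb. A log2 fold change (log2FC) is positive when the second state of a comparison was higher and is on the log2(ppm + 0.1) scale. A gene was called differentially expressed (DEG) when it changed more than 2-fold at an adjusted p below 0.01 in limma, fitted over all genes tested. A gene described as having risen or fallen passed at least an adjusted p below 0.05 at any fold in the same fit. The libraries held 35782513 to 47928557 reads' worth of coverage, and the 53 genes took 0.56% to 0.832% of it.

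In total, 6 members were DEGs in at least 1 comparison, namely *Aldoc*, *Pdk1*, *Pdk2*, *Pcx*, *Rpia* and *G6pdx*, 21 more passed the adjusted p of 0.05 without meeting the DEG criteria, and 24 of the 51 passed neither rule in any comparison. In E vs. M, 4 of 51 members were DEGs, all lower in M, where 8.39% of all genes tested were DEGs lower in M and 17% were DEGs in either direction. No member was a DEG higher in M, where 8.58% of all genes were. In M vs. RE, 5 members were DEGs, all higher in RE, beside 8.08% of all genes, and none was lower, beside 4.79%. In E vs. RE, 2 members were DEGs higher in RE and 1 was lower, beside 6.2% and 3.17% of all genes. The share of members that were DEGs, 7.84%, 9.8% and 5.88% in the 3 comparisons, lay below the 17%, 12.9% and 9.37% of all genes tested. Leaving out a library changed these counts in each of the 3 comparisons, for the members and for all genes tested. The member calls in E vs. RE were all lost without either RE library, where DEGs over all genes tested also became far fewer.

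At an adjusted p below 0.05 at any fold, 6 members rose and 12 fell in E vs. M, beside 21.5% and 19.9% of all genes. The corresponding counts were 10 and 5 in M vs. RE, beside 17% and 14.6%, and 7 and 6 in E vs. RE, beside 17.2% and 12.9%. In either direction this made 18, 15 and 13 members, beside 41.4%, 31.5% and 30.1% of all genes. Most of these members did not pass when 1 library of M or RE was left out of a comparison with that state. DEGs over all genes tested became fewer there too. The 2 libraries of M lay above both of E in 13 members and below both in 19, beside 35.5% and 35% of all genes. For RE against M these were 22 and 18 members, beside 37.9% and 40.2%, and for RE against E 14 and 21, beside 34.2% and 32.5%. The median log2FC of the 51 members was -0.11 for E vs. M, 0.055 for M vs. RE and -0.14 for E vs. RE, while that of all genes tested was 0.0013, -0.017 and 0.0079. The summed coverage of the 53 genes was 7441 and 6091 ppm in the E libraries, 6644 and 6157 ppm in M, and 6635 and 6796 ppm in RE, so the sums of the 3 states overlapped. The 3 comparisons share their libraries pairwise and are not independent of each other.

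**Figure D1:**
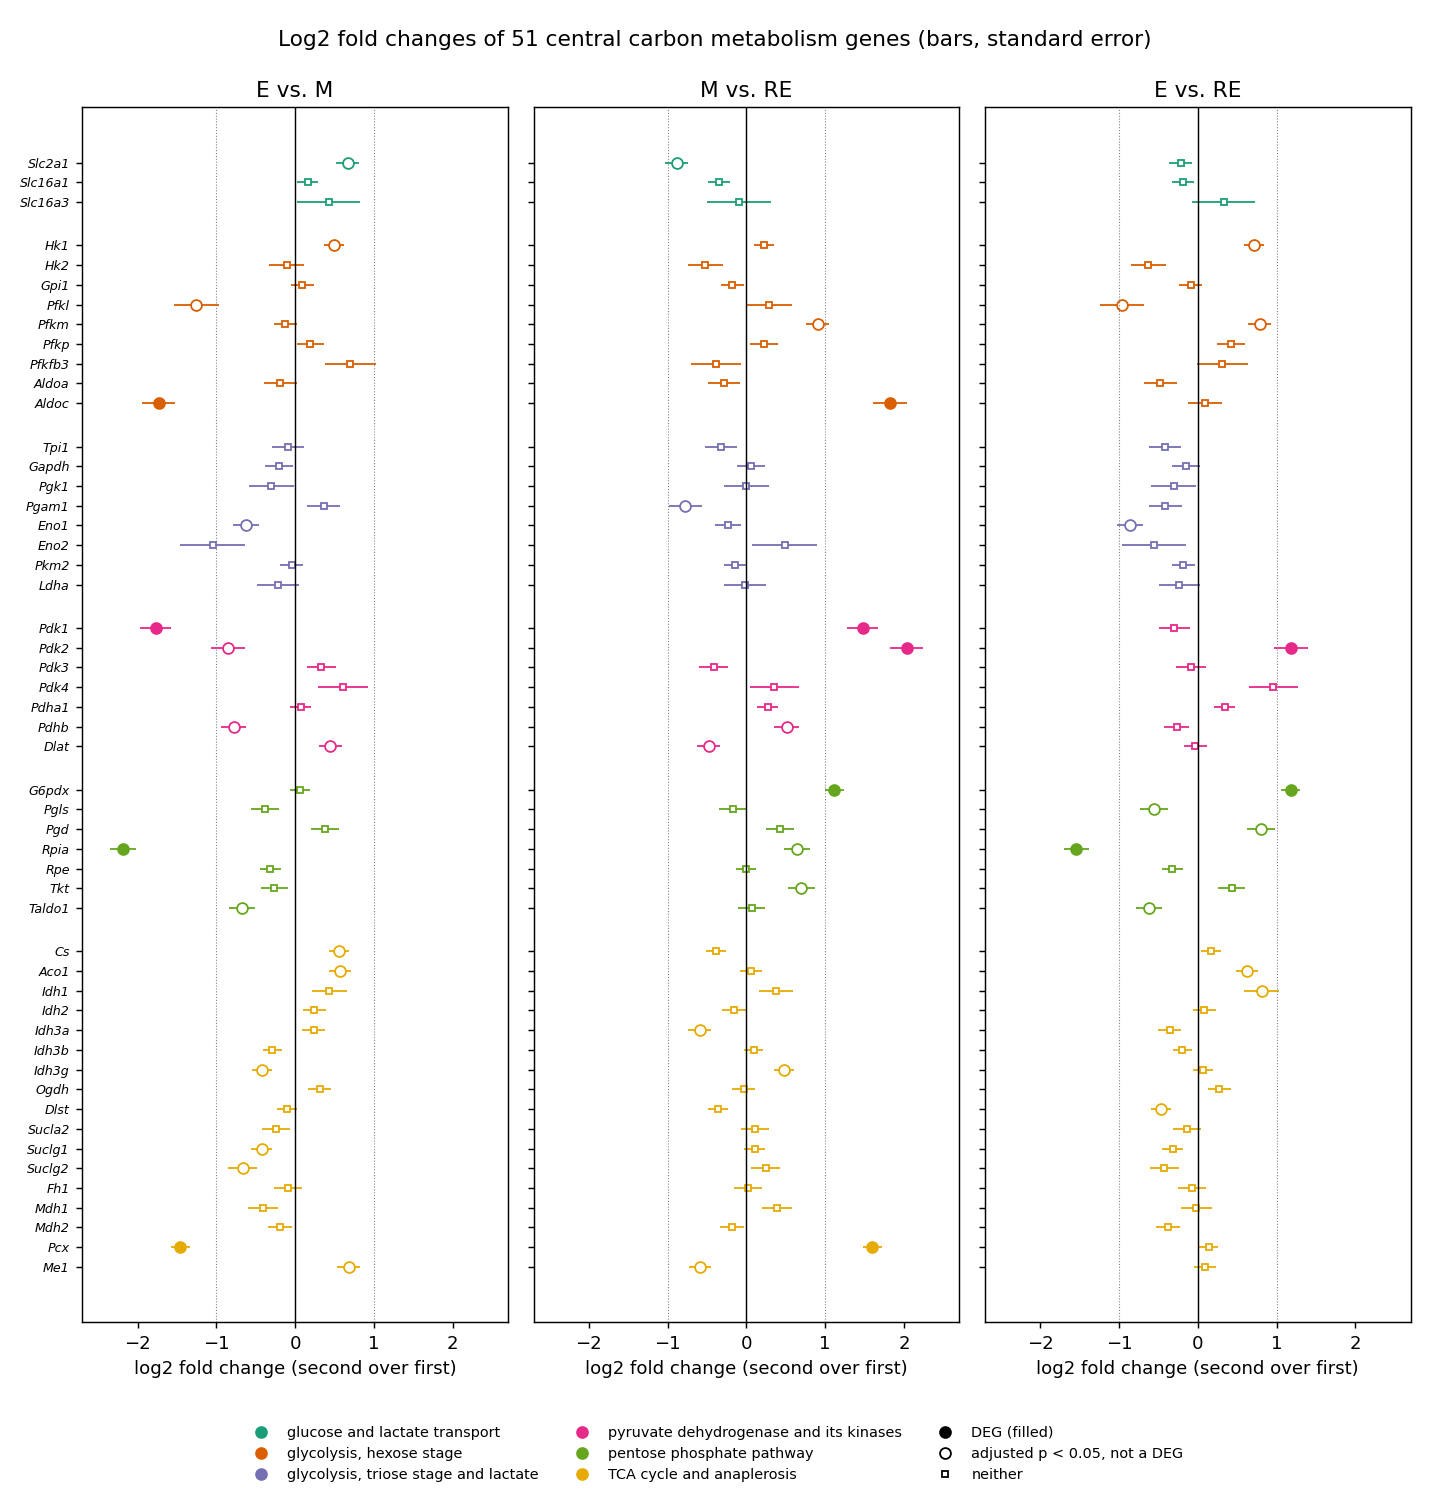
Log2 fold changes of the 51 members tested (x axis, second state over first; bars, standard error) in E vs. M, M vs. RE and E vs. RE, grouped by pathway. Filled circles are DEGs, open circles passed an adjusted p below 0.05 only and squares passed neither; most genes lie between -1 and 1, and *Aldoc*, *Pdk1* and *Pcx* lie far to the left in E vs. M and far to the right in M vs. RE.

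The E libraries stood apart from each other more than those of M or RE. Across the 51 members, the difference between replicate 1 and replicate 2 on the log2 scale had an SD of 0.38 in E, 0.15 in M and 0.21 in RE, beside 0.56, 0.32 and 0.31 over all genes tested. Coverage was higher in replicate 1 than in replicate 2 for 38 of 51 members in E, 42 in M and 19 in RE. The median difference in E was 0.26 for the members and 0.018 for all genes tested. In M it was 0.11 and 0.035, and in RE -0.045 and 0.015. In E, 12 members differed by more than 0.5. These counts were not made over all genes. Among the glycolytic triose-stage genes, 7 of 8 were higher in E replicate 1, and all 7 genes of pyruvate dehydrogenase and its kinases were. So were 6 of 9 hexose-stage, 6 of 7 pentose phosphate and 11 of 17 TCA cycle genes, but only 1 of 3 transporters. Leaving out an E library moved some log2FC of the members. In E vs. M, *Pdk2* was at -1.05 without E replicate 2 and -0.67 without E replicate 1, and *Pfkl* at -1.77 and -0.75. In E vs. RE, *Idh1* was at 0.53 and 1.09 and *Pgd* at 0.55 and 1.05 in the same order. DEGs over all genes tested became more numerous in both comparisons without either E library, so a rise in member DEGs there is not particular to the members.

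**Figure D2:**
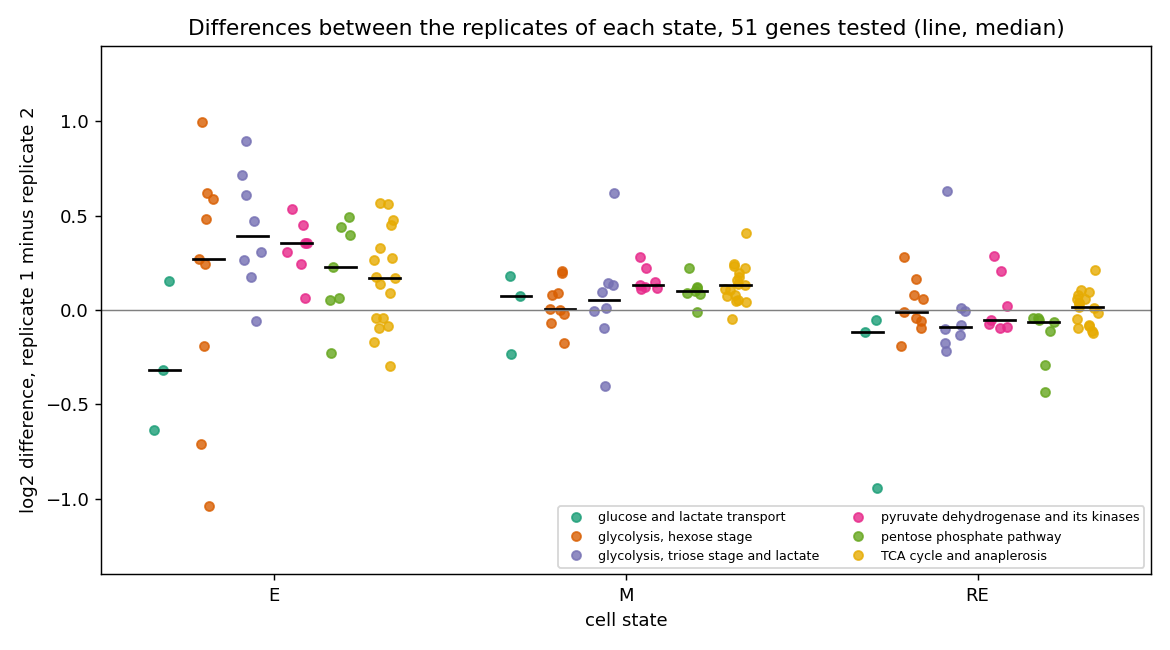
Difference in log2 coverage between replicate 1 and replicate 2 (y axis) for the 51 members tested in E, M and RE (x axis), coloured by pathway, with the median of each pathway as a line. The points of E reach about 1 in either direction and lie mostly above 0, whereas those of M and RE lie closer to 0.

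The cells carried luminal and basal markers of mammary epithelium, with *Krt8* at 122 to 323 ppm, *Cdh1* at 244 to 327 ppm and *Krt14* at 223 to 755 ppm, while *Krt19* and *Krt5* stayed under 0.5 ppm. The 4 luminal markers in the table summed to 1119 to 1381 ppm in E, 1148 to 1175 ppm in M and 663 to 711 ppm in RE, but did not move together. *Krt18* was at 611 to 880, 550 to 589 and 270 to 312 ppm in the same order. *Krt8* was at 181 to 223, 315 to 323 and 122 to 133 ppm, and *Cdh1* at 278 to 327, 244 to 303 and 266 to 271 ppm. The 3 basal markers summed to 305 to 374 ppm in E, 711 to 810 ppm in M and 495 to 497 ppm in RE, mostly through *Krt14*. *Trp63* differed from *Krt14*, with 59.0 to 81.7 ppm in E, 44.7 to 54.9 ppm in M and 158 to 173 ppm in RE. The 4 fibroblast markers summed to 84.7 to 113 ppm in E, 442 to 488 ppm in M and 766 to 907 ppm in RE, mostly through *Pdgfrb*. The 4 immune markers summed to 6.78 to 10.5 ppm in E, 33.0 to 36.7 ppm in M and 7.30 to 7.43 ppm in RE, where *Csf1r* gave most of the M signal and *Ptprc* and *Cd3e* were at or under the floor of 3 reads' worth. The part of any of these lists in the differences described here was not tested. In bulk RNA, fewer cells expressing a gene and less RNA per cell cannot be told apart.

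Pyruvate carboxylase, *Pcx*, the mitochondrial enzyme that refills oxaloacetate, was lower in M than in E and RE. Its coverage was 233 and 240 ppm in E, 84.5 and 87.3 ppm in M, and 259 and 262 ppm in RE. Both M libraries lay far below the other 4, and the replicates were close together in each state. *Pcx* fell with a log2FC of -1.46 ± 0.12 (SE, limma adjusted p = 0.000114) in E vs. M and rose by 1.60 ± 0.12 (limma adjusted p = 8.29e-05) in M vs. RE. Its E and RE libraries did not overlap, but the difference of 0.14 ± 0.12 did not pass the test (limma adjusted p = 0.411).

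*Aldoc* encodes aldolase C, a minor aldolase outside the nervous system, and *Pdk1* encodes a pyruvate dehydrogenase kinase that responds to hypoxia. *Aldoc* was at 22.6 and 15.0 ppm in E, 5.42 and 5.50 ppm in M, and 20.7 and 18.5 ppm in RE, so that E and RE overlapped and M was lower than both. It fell in E vs. M (log2FC -1.73 ± 0.22, limma adjusted p = 0.000765) and rose in M vs. RE (1.82 ± 0.22, limma adjusted p = 0.000764). *Pdk1* was at 19.8 and 14.4 ppm in E, 5.11 and 4.65 ppm in M, and 13.4 and 14.1 ppm in RE. It fell in E vs. M (-1.77 ± 0.20, limma adjusted p = 0.000446) and rose in M vs. RE (1.47 ± 0.20, limma adjusted p = 0.00129), and both RE libraries lay just below both E libraries. In E vs. RE the log2FC was 0.088 for *Aldoc* and -0.30 for *Pdk1* (limma adjusted p = 0.782 and 0.281). Without a library of M or RE the call of *Aldoc* was lost in places (limma adjusted p up to 0.0112 in E vs. M and 0.0147 in M vs. RE), as was that of *Pdk1* in M vs. RE (up to 0.0192 in limma).

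*Rpia*, which encodes the ribose 5-phosphate isomerase of the non-oxidative pentose phosphate pathway, was the member with the largest fold change in E vs. M. Coverage was 56.5 and 66.3 ppm in E, 13.9 and 13.0 ppm in M, and 19.0 and 23.2 ppm in RE. Both M and RE libraries were well below E, and RE lay above M without overlap. *Rpia* fell by 2.18 on the log2 scale in E vs. M (SE 0.16, limma adjusted p = 7.83e-05) and was still 1.54 below E in RE (log2FC -1.54 ± 0.16, limma adjusted p = 0.00101). It rose in M vs. RE by 0.64 ± 0.16 (limma adjusted p = 0.0221), which is below the 2-fold criterion. The call in E vs. RE was lost without RE replicate 1 (limma adjusted p = 0.0225) or RE replicate 2 (0.0114).

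*G6pdx* encodes glucose 6-phosphate dehydrogenase, the enzyme that opens the oxidative pentose phosphate branch and yields NADPH. Its coverage was 87.6 and 84.4 ppm in E, 93.4 and 86.1 ppm in M, and 191 and 198 ppm in RE. E and M overlapped, and both RE libraries were above all 4 of them. *G6pdx* rose in M vs. RE (log2FC 1.12 ± 0.12, limma adjusted p = 0.000525) and was higher in RE than in E (1.18 ± 0.12, limma adjusted p = 0.000918), while E vs. M gave 0.061 ± 0.12 (limma adjusted p = 0.716). The call in M vs. RE was lost without any 1 library of M or RE (limma adjusted p = 0.0103 to 0.0147), and that in E vs. RE without either RE library (0.0234 and 0.02). Of the 50-base windows of its transcript, 32.1% also matched another locus, and its part in the coverage of *G6pdx*, for which the authors used unique reads, was not tested.

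*Pdk2*, a second pyruvate dehydrogenase kinase, was at 8.01 and 6.23 ppm in E, 4.28 and 3.50 ppm in M, and 17.9 and 14.6 ppm in RE. No library of one state overlapped with those of another, with RE highest and M lowest. It fell in E vs. M (log2FC -0.85 ± 0.21, limma adjusted p = 0.0158), rose in M vs. RE (2.03 ± 0.21, limma adjusted p = 0.000417) and was higher in RE than in E (1.18 ± 0.21, limma adjusted p = 0.00661). The DEG call in E vs. RE did not hold when the fit used only the libraries of the 2 states (limma adjusted p = 0.0174), with library totals in place of TMM factors (0.0105), without the filter on low coverage (0.0134), with array weights (0.0123) or without any 1 library of M or RE (limma adjusted p up to 0.0875).

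**Figure D3:**
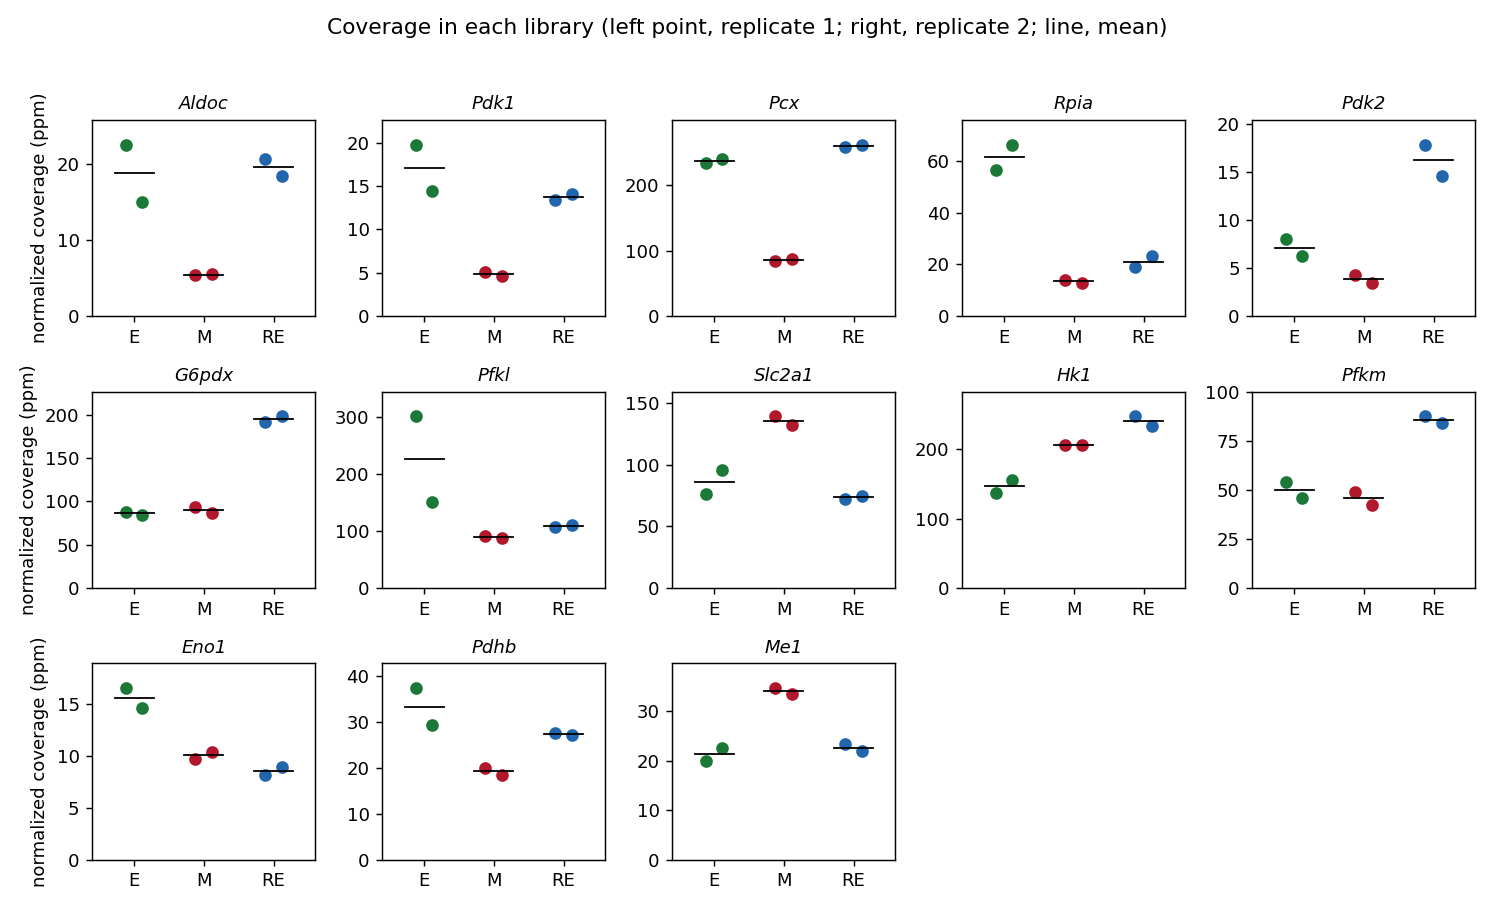
Normalized coverage in ppm (y axis, from 0) in each library of E, M and RE (x axis) for the 6 DEGs, the 6 other members at an adjusted p below 0.01, and *Pfkl*; points are libraries and lines are means. *Aldoc*, *Pdk1* and *Pcx* dip in M and return, *Rpia* stays low in RE, *Pdk2* and *G6pdx* are highest in RE, and the 2 E points of *Pfkl* lie far apart.

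The promoters of the 3 members that were DEGs both in E vs. M, where they fell, and in M vs. RE, where they rose, and that of *Rpia*, are shown because hypoxia-inducible factors and Myc are known to act on glycolytic genes through short core sequences. That of *Ldha*, a known target which passed no test here, is added for comparison. Each run holds the 250 bases before the most upstream RefSeq start of the gene, 5′ to 3′ on the strand of the gene (GRCm38.p6). Capitals mark matches on either strand to ACGTG or GCGTG, which therefore also appear as CACGT or CACGC, and CACGTG, the E-box, is an overlapping pair of ACGTG matches.
*Pcx*, chr19:4510222-4510471, plus strand: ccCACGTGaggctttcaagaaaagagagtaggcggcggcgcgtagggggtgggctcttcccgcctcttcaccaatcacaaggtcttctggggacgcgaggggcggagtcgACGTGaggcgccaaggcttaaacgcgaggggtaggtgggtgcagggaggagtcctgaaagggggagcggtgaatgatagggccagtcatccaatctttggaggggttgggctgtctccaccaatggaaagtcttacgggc
*Pdk1*, chr2:71872974-71873223, plus strand: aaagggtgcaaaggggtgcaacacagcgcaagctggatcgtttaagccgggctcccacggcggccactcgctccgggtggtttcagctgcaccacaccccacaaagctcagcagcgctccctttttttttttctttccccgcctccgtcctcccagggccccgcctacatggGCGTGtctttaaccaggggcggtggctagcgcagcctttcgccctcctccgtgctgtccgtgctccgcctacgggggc
*Aldoc*, chr11:78322823-78323072, plus strand: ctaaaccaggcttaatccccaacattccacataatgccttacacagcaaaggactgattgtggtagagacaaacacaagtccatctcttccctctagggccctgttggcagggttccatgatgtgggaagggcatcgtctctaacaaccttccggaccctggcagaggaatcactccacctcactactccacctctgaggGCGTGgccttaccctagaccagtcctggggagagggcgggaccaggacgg
*Rpia*, chr6:70792176-70792425, minus strand: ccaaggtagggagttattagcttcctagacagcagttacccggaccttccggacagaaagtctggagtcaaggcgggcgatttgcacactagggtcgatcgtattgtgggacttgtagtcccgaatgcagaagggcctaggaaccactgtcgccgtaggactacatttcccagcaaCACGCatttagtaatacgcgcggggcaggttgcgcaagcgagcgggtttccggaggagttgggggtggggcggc
*Ldha*, chr7:46845554-46845803, plus strand: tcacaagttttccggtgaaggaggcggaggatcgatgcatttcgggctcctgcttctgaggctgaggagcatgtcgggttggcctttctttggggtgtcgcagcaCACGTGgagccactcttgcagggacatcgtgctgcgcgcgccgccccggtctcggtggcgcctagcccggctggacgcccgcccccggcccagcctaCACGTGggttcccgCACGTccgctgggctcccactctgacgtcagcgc

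Counting overlapping matches separately, these windows held 3 matches in *Pcx*, 1 each in *Pdk1*, *Aldoc* and *Rpia*, and 5 in *Ldha*. Over all promoter windows of the 51 members that had one, 53 of 74 windows (71.6%) held ACGTG or GCGTG, beside 38.6% of the 32851 windows of all genes. ACGTG alone stood in 36.5% and 16.6% of them, and CACGTG in 12.2% and 6.02%. Windows of 1 gene can overlap, as those of *Ogdh* did, so they are not separate promoters. By gene, 40 of the 51 members held ACGTG or GCGTG in at least 1 window, 19 held ACGTG and 7 held CACGTG. This was not counted by gene for all genes. The member windows were also richer in G and C, with a median of 60.6% against 52.4%. These are counts of letters in a window and say nothing of whether a factor was bound there.

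Among the glucose and lactate transporters, *Slc2a1*, which encodes the glucose transporter GLUT1, was the only one of 3 tested that changed. It was at 76.6 and 95.5 ppm in E, 140 and 133 ppm in M, and 72.3 and 74.9 ppm in RE, with both M libraries above the other 4. *Slc2a1* rose in E vs. M (log2FC 0.67 ± 0.15, limma adjusted p = 0.00893) and fell in M vs. RE (-0.89 ± 0.15, limma adjusted p = 0.0034). *Slc16a1*, the monocarboxylate transporter MCT1 and the member of this group with the most coverage, lay between 103 and 146 ppm and passed no test. *Slc16a3*, which encodes MCT4, was at 0.393 to 0.972 ppm, and *Slc2a3*, which encodes GLUT3, was at 0.0683 to 0.222 ppm and too low to be tested. Per kb of transcript, mean coverage over the 6 libraries was 30.2 ppm for *Slc2a1* against 0.0369 ppm for *Slc2a3*, and 27.7 ppm for *Slc16a1* against 0.152 ppm for *Slc16a3*. The log2 ratio of *Slc2a3* to *Slc2a1* was -8.57, -8.88 and -8.44 as the mean of E, M and RE, and that of *Slc16a3* to *Slc16a1* was -7.64, -7.37 and -7.12.

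In the hexose stage of glycolysis, 1 of 9 members was a DEG in E vs. M and in M vs. RE, *Aldoc*, and none was in E vs. RE. Hexokinase 1, *Hk1*, which traps glucose as glucose 6-phosphate, was at 137 and 156 ppm in E, 206 ppm in both M libraries, and 247 and 234 ppm in RE. It rose in E vs. M (log2FC 0.49 ± 0.13, limma adjusted p = 0.019) and was higher in RE than in E (0.72 ± 0.13, limma adjusted p = 0.00672). Hexokinase 2, *Hk2*, was at 59.5 and 97.3 ppm in E, 70.8 and 70.6 ppm in M, and 46.1 and 52.6 ppm in RE, and passed no test. The log2 ratio of *Hk2* to *Hk1* was -0.94 ± 0.37 (SD, n = 2) in E, -1.54 ± 0.0020 in M and -2.29 ± 0.19 in RE, without overlap between the states. With 2 libraries against 2, an exact permutation test of a ratio cannot give a two-sided p below 0.333, so no p is given for the ratios. They are ratios of ppm, not corrected for length, and serve to compare states.

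Phosphofructokinase, the committed step of glycolysis, has the subunits *Pfkl*, *Pfkm* and *Pfkp*, named after liver, muscle and platelet. *Pfkm* was at 54.2 and 45.8 ppm in E, 49.1 and 42.5 ppm in M, and 87.5 and 84.1 ppm in RE. Both RE libraries were above the rest, and *Pfkm* rose in M vs. RE (log2FC 0.91 ± 0.15, limma adjusted p = 0.00313) and was higher in RE than in E (0.78 ± 0.15, limma adjusted p = 0.00755). *Pfkp* lay between 68.4 and 109 ppm and passed no test.

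*Pfkl* was at 302 and 151 ppm in E, 92.0 and 87.1 ppm in M, and 108 and 111 ppm in RE. Both E libraries lay above all 4 others, but E replicate 1 lay further above E replicate 2 than E replicate 2 above M on the log2 scale. *Pfkl* fell in E vs. M (log2FC -1.25 ± 0.28, limma adjusted p = 0.0107) and was lower in RE than in E (-0.96 ± 0.28, limma adjusted p = 0.0392), without meeting the DEG criteria in either. The E vs. M value was -1.77 without E replicate 2 and -0.75 without E replicate 1, and *Pfkl* became a DEG there with library totals, array weights, the replicate block or the removal of a GC and length trend (limma adjusted p = 0.00552, 0.000976, 0.00818 and 0.00922). The log2 ratio of *Pfkl* to *Pfkp* was 1.66 and 1.14 in the E libraries, 0.078 and -0.17 in M, and 0.00076 and 0.031 in RE, so that E was above M and RE.

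*Aldoa*, the main aldolase and the hexose-stage gene with the most coverage, was at 626 and 407 ppm in E, 457 and 430 ppm in M, and 352 and 375 ppm in RE. It passed no test. The log2 ratio of *Aldoc* to *Aldoa* was -4.77 ± 0.024 (SD, n = 2) in E, -6.32 ± 0.078 in M and -4.21 ± 0.18 in RE, so that M was below E and RE. *Gpi1*, the phosphoglucose isomerase, stayed between 113 and 141 ppm. *Pfkfb3*, whose product makes the phosphofructokinase activator fructose 2,6-bisphosphate, was at 3.73 and 7.77 ppm in E, 8.60 and 9.03 ppm in M, and 7.41 and 6.09 ppm in RE, and passed no test.

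In the triose stage and lactate production, none of the 8 genes tested was a DEG in any comparison. *Eno1*, the common enolase, was at 16.6 and 14.7 ppm in E, 9.75 and 10.4 ppm in M, and 8.17 and 8.98 ppm in RE. E was above the other states, and *Eno1* fell in E vs. M (log2FC -0.63 ± 0.16, limma adjusted p = 0.0182) and was lower in RE than in E (-0.86 ± 0.16, limma adjusted p = 0.00789). *Pgam1*, a phosphoglycerate mutase, fell in M vs. RE (-0.78 ± 0.21, limma adjusted p = 0.0268). *Pkm2*, the pyruvate kinase gene and the one of this group with the most coverage, stayed between 287 and 380 ppm. *Ldha*, the lactate dehydrogenase subunit that favours lactate formation, was at 264 and 142 ppm in E, 174 and 159 ppm in M, and 159 and 170 ppm in RE, with M and RE inside the range of E.

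Of the listed isoenzymes of *Eno1* and *Ldha*, *Eno2* and *Ldhb* had little coverage, with 0.0985 ppm per kb for *Eno2* against 5.64 ppm per kb for *Eno1*, and 0.18 ppm per kb for *Ldhb* against 98.1 ppm per kb for *Ldha*. *Eno2*, neuronal enolase, was at 0.501 and 0.333 ppm in E, 0.207 and 0.0995 ppm in M, and 0.332 and 0.179 ppm in RE, and passed no test. *Eno3*, the muscle enolase and not among the 53, was at 173 to 217 ppm in the 6 libraries and passed no test. *Ldhb* was at 0.579 and 0.246 ppm in E, 0.0479 and 0.123 ppm in M, and 0.196 and 0.217 ppm in RE, too low to be tested. For *Ldha* to *Ldhb*, the log2 ratio was 8.64, 9.84 and 9.07 as the mean of E, M and RE, and that of *Eno2* to *Eno1* was -4.94, -5.36 and -4.64. These ratios rest on values near the floor and on genes that share sequence with other loci.

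The authors mapped unique reads, and several glycolytic genes are known for their many processed pseudogenes. Of the 50-base windows of the *Gapdh* transcript, 85.0% matched another locus within 2 mismatches, spread over 387 other loci, of which 329 are annotated as pseudogenes. The share was 85.5% for *Eno1*, 68.4% for *Pgk1*, 66.9% for *Ldhb*, 64.6% for *Pkm2* and 57.8% for *Aldoa*. Per kb of transcript, mean coverage over the 6 libraries was 5.95 ppm for *Gapdh*, 5.64 ppm for *Eno1* and 1.70 ppm for *Pgk1*, against 285 ppm for *Aldoa* and 89.1 ppm for *Tpi1* in the same pathway. *Gapdh* ranked 40th and *Pgk1* 45th of the 53 members on this scale. The part of shared sequence in these levels was not tested. Whether shared sequence has a part in differences between states was not tested either. *Gapdh* stayed between 7.90 and 10.2 ppm in the 6 libraries.

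**Figure D4:**
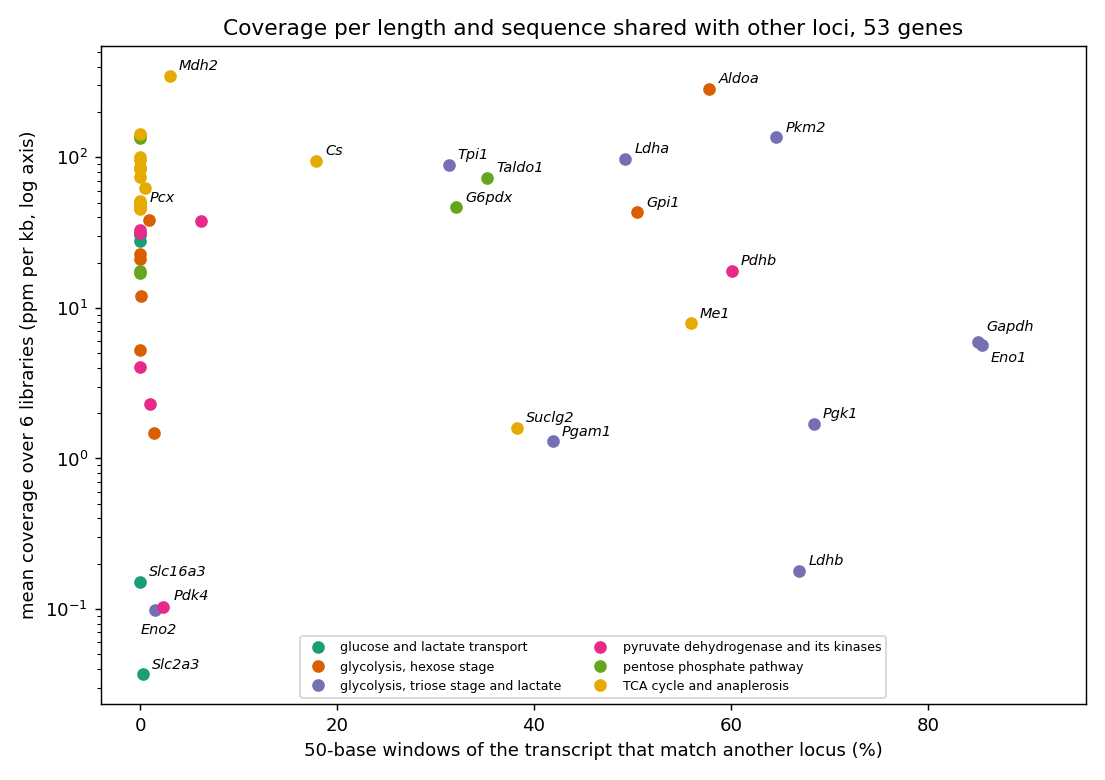
Mean coverage over the 6 libraries per kb of transcript (y axis, ppm per kb, log axis) against the share of 50-base windows of the transcript that match another locus (x axis, %) for the 53 members, coloured by pathway. *Gapdh*, *Eno1* and *Pgk1* lie at the right and low, *Aldoa* and *Pkm2* high despite shares over 50%, and *Slc2a3*, *Eno2*, *Pdk4* and *Slc16a3* low at shares under 3%.

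In all, 31 members shared under 1% of windows with another locus, 7 shared 1% to 30% and 15 shared over 30%. The median coverage per kb was 46.2, 2.30 and 17.7 ppm in these classes, and the lowest values of the first class belonged to genes such as *Slc2a3* with almost no shared sequence. Of the 6 DEGs, *G6pdx* was the only one in the last class, and the others shared at most 1.05%. The other members of that class that passed an adjusted p below 0.05 were *Eno1*, *Pdhb*, *Me1* (55.9%), *Pgam1* (41.9%), *Suclg2* (38.3%) and *Taldo1* (35.3%).

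At the entry of pyruvate into mitochondria, 4 of 7 genes changed in E vs. M, in both directions, beside 41.4% of all genes tested. *Pdhb*, the beta subunit of the E1 enzyme of pyruvate dehydrogenase, was at 37.5 and 29.3 ppm in E, 20.1 and 18.5 ppm in M, and 27.7 and 27.2 ppm in RE, with M lowest. It fell in E vs. M (log2FC -0.78 ± 0.16, limma adjusted p = 0.00754) and rose in M vs. RE (0.51 ± 0.16, limma adjusted p = 0.048), and 60.1% of its windows matched another locus. *Dlat*, the E2 subunit and the gene of this group with the most coverage, went the other way, from 127 and 103 ppm in E to 162 and 149 ppm in M and 110 and 114 ppm in RE. It rose in E vs. M (0.45 ± 0.15, limma adjusted p = 0.0432) and fell in M vs. RE (-0.48 ± 0.15, limma adjusted p = 0.0417). *Pdha1*, the alpha subunit of E1, stayed between 94.7 and 132 ppm and passed no test.

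The 4 pyruvate dehydrogenase kinases did not move together. Per kb and over the 6 libraries, *Pdk3* had a mean coverage of 33.1 ppm and *Pdk4* of 0.103 ppm. *Pdk1* and *Pdk2* lay between them, with 3.30 and 3.17 ppm per kb in E, 0.942 and 1.73 in M, and 2.65 and 7.23 in RE. *Pdk3* lay between 54.2 and 86.5 ppm and passed no test, while *Pdk4*, best known from fasting muscle and heart, was at 0.235 and 0.183 ppm in E, 0.406 and 0.333 ppm in M, and 0.479 and 0.520 ppm in RE. *Pdk4* did not overlap between any of the states and missed the threshold in E vs. RE (log2FC 0.96 ± 0.32, limma adjusted p = 0.0547). The log2 ratio of *Pdk1* to *Pdk2* was 1.29 and 1.20 in the E libraries, 0.25 and 0.40 in M, and -0.41 and -0.053 in RE, so that it was highest in E and lowest in RE without overlap. Between *Pdk4* and *Pdk1*, the log2 ratio was -5.78, -3.41 and -4.53 as the mean of E, M and RE.

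In the pentose phosphate pathway, the oxidative and non-oxidative genes other than *G6pdx* and *Rpia* differed by less than 2-fold. *Pgd*, the second dehydrogenase of the oxidative branch, was at 276 and 196 ppm in E, 310 and 293 ppm in M, and 395 and 413 ppm in RE. It was higher in RE than in E (log2FC 0.80 ± 0.18, limma adjusted p = 0.0148), and no states overlapped. *Pgls*, the lactonase between the 2 dehydrogenases, was lower in RE than in E (-0.55 ± 0.18, limma adjusted p = 0.0493), against the direction of both. This last value is sensitive to processing, since it was 0.0015 after a trend on GC content and length was removed.

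In the non-oxidative branch, *Tkt*, transketolase and the pentose phosphate gene with the most coverage, was at 469 and 357 ppm in E, 368 and 315 ppm in M, and 530 and 573 ppm in RE. It rose in M vs. RE (log2FC 0.69 ± 0.17, limma adjusted p = 0.02), and E and M overlapped. *Taldo1*, transaldolase, fell in E vs. M (-0.68 ± 0.17, limma adjusted p = 0.0143) and was lower in RE than in E (-0.61 ± 0.17, limma adjusted p = 0.0287). *Rpe*, the epimerase that shares its substrate with *Rpia*, was at 54.6 and 52.2 ppm in E, 44.9 and 41.1 ppm in M, and 42.1 and 43.3 ppm in RE and passed no test. The summed coverage of the 7 genes was 1165 and 926 ppm in E, 963 and 877 ppm in M, and 1300 and 1388 ppm in RE, so RE was above the rest and E and M overlapped.

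The TCA cycle and the reactions that feed it had 17 members, all tested, of which *Pcx* was the only DEG in E vs. M and in M vs. RE, and none was a DEG in E vs. RE. *Mdh2*, mitochondrial malate dehydrogenase, had the highest coverage per kb of all 53 members (347 ppm) and lay between 426 and 641 ppm in total. At an adjusted p below 0.05, 3 of the 17 rose and 4 fell in E vs. M, near the 21.5% and 19.9% of all genes. Citrate synthase, *Cs*, which opens the cycle, rose from 225 and 238 ppm in E to 357 and 326 ppm in M (log2FC 0.56 ± 0.13, limma adjusted p = 0.0108) and was at 261 and 260 ppm in RE. *Me1*, cytosolic malic enzyme and a source of NADPH, rose from a mean of 21.3 ± 1.79 ppm (SD, n = 2) in E to 34.1 ± 0.843 ppm in M (0.68 ± 0.14, limma adjusted p = 0.00748). It fell to 22.6 ± 1.09 ppm in RE (-0.59 ± 0.14 in M vs. RE, limma adjusted p = 0.0172), where E and RE overlapped.

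*Aco1*, cytosolic aconitase, was the third gene that rose in E vs. M (log2FC 0.57 ± 0.14, limma adjusted p = 0.0138), and it was still higher in RE than in E (0.63 ± 0.14, limma adjusted p = 0.0141). *Idh1*, the cytosolic NADP-dependent isocitrate dehydrogenase, was at 95.4 and 64.5 ppm in E, 122 and 92.2 ppm in M, and 148 and 128 ppm in RE. It was higher in RE than in E (0.81 ± 0.22, limma adjusted p = 0.0297), whereas *Idh2*, its mitochondrial counterpart, stayed between 126 and 176 ppm. The log2 ratio of *Idh1* to *Idh2* was -0.82 ± 0.20 (SD, n = 2) in E, -0.63 ± 0.15 in M and -0.094 ± 0.24 in RE, where RE lay above E and M. For cytosolic *Mdh1* to *Mdh2* it was -0.80 ± 0.17, -1.01 ± 0.042 and -0.44 ± 0.11 in the same order, again with RE highest.

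The subunits of a single TCA complex also differed. Of the 3 genes of NAD-dependent isocitrate dehydrogenase, the catalytic *Idh3a* was at 238 and 198 ppm in E, 272 and 242 ppm in M, and 165 and 175 ppm in RE, and fell in M vs. RE (log2FC -0.59 ± 0.15, limma adjusted p = 0.0192). The regulatory *Idh3g* was at 144 and 128 ppm in E, 104 and 100 ppm in M, and 146 and 138 ppm in RE. It fell in E vs. M (-0.42 ± 0.13, limma adjusted p = 0.0339) and rose in M vs. RE (0.48 ± 0.13, limma adjusted p = 0.0257), opposite to *Idh3a*. *Idh3b* stayed between 106 and 138 ppm and passed no test.

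Of the succinyl-CoA synthetase genes, *Suclg1* and *Suclg2* fell in E vs. M (log2FC -0.43 ± 0.13 and -0.66 ± 0.18, limma adjusted p = 0.0355 and 0.0239), and *Sucla2* was at 90.3 to 136 ppm and passed no test. Of the 2-oxoglutarate dehydrogenase genes, *Dlst* was lower in RE than in E (-0.47 ± 0.13, limma adjusted p = 0.029), and *Ogdh*, at 274 to 388 ppm, passed no test. *Fh1*, fumarase, was at 145 to 202 ppm and passed no test.

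Related genes outside the 53 were taken from lists of 131 genes on glucose storage, transport, amino acid supply and hypoxia, of which 103 were tested. Among them, 8 were DEGs higher and 11 lower in E vs. M, 9 and 3 in M vs. RE, and 6 and 11 in E vs. RE, to be read beside the shares of all genes given above. *Shpk*, sedoheptulokinase, which acts on a pentose phosphate intermediate, was lowest in M and was lower in RE than in E (log2FC -0.80, limma adjusted p = 0.0322). It was at 28.8 and 42.2 ppm in E, 3.46 and 3.47 ppm in M, and 22.6 and 17.7 ppm in RE (log2FC -3.29 in E vs. M, limma adjusted p = 5.32e-05, and limma adjusted p = 0.000188 in M vs. RE). *Fbp2*, a fructose bisphosphatase of gluconeogenesis, was at 8.18 and 6.68 ppm in E, 0.426 and 0.291 ppm in M, and 2.51 and 2.01 ppm in RE (-4.05 in E vs. M and 2.37 in M vs. RE, limma adjusted p = 4.42e-05 and 0.000558). It was a DEG lower in RE than in E as well (-1.67, limma adjusted p = 0.00403).

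Of the 19 hypoxia factors and targets tested, 5 were DEGs lower and 1 higher in E vs. M, beside 8.39% and 8.58% of all genes, and 3 were higher and 1 lower in M vs. RE, beside 8.08% and 4.79%. *Epas1*, which encodes HIF-2α, was at 16.2 and 29.9 ppm in E, 5.50 and 6.97 ppm in M, and 70.4 and 74.7 ppm in RE, so no states overlapped. *Car9*, a carbonic anhydrase, and *Adm*, adrenomedullin, fell in E vs. M (log2FC -1.86 and -4.07, limma adjusted p = 0.00016 and 4.78e-05) and rose in M vs. RE (1.22 and 1.93, limma adjusted p = 0.0014 and 0.00162). *Egln1*, which encodes an oxygen-sensing prolyl hydroxylase, went the other way, from 64.1 and 51.1 ppm in E to 129 and 119 ppm in M and 51.8 and 57.8 ppm in RE. *Egln3* and *Mxi1* fell in E vs. M (-2.10 and -1.11, limma adjusted p = 0.00384 and 0.00128). Members that are known hypoxia targets too went different ways in E vs. M, and those named here are not a complete list. *Pdk1*, *Aldoc*, *Eno1* and *Pfkl* fell, and *Slc2a1* and *Hk1* rose. *Ldha*, *Pgk1*, *Hk2*, *Pfkfb3*, *Aldoa*, *Tpi1*, *Gapdh* and *Slc16a3* passed no test.

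Genes that rose in E vs. M as DEGs included *Pfkfb4*, a regulator of fructose 2,6-bisphosphate (log2FC 1.91, limma adjusted p = 0.000465), *Gfpt1* of hexosamine synthesis (1.46, limma adjusted p = 0.00102) and *H6pd* and *Tktl1*, relatives of *G6pdx* and *Tkt* (1.22 and 2.02, limma adjusted p = 0.00742 and 0.00261). *Pygm*, muscle glycogen phosphorylase, and the transporter gene *Slc2a6* also rose (1.43 and 1.30, limma adjusted p = 0.00836 and 0.00326). *Gapdhs*, the sperm isoform of *Gapdh*, fell (-1.82, limma adjusted p = 0.00231). *Pfkfb4* fell again in M vs. RE (-1.29, limma adjusted p = 0.0034). *Gfpt2*, the second gene of hexosamine synthesis listed, was at 0.604 and 0.520 ppm in M and at 0.0205 to 0.0588 ppm in E and RE, under the floor of 3 reads' worth. *Gfpt2* passed the filter on coverage only through the M libraries, where it was high. Its calls as a DEG higher in M therefore add no support to these levels.

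Related DEGs higher in RE than in E were *Epas1* and *Gfpt1* (log2FC 1.71 and 1.09, limma adjusted p = 0.00449 and 0.00616), *Glul*, glutamine synthetase, from 7.05 and 6.65 ppm in E to 17.1 and 19.5 ppm in RE (limma adjusted p = 0.00179), *Me3*, a mitochondrial malic enzyme, from 9.95 and 10.1 ppm to 21.3 and 19.2 ppm (limma adjusted p = 0.00368), and the transporter genes *Slc2a6* and *Slc2a9* (1.75 and 1.08, limma adjusted p = 0.00182 and 0.00618). *Ldhd*, D-lactate dehydrogenase, rose in M vs. RE (1.37, limma adjusted p = 0.00544).

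Of serine and one-carbon synthesis, 7 of the 8 genes were lower in RE than in E at an adjusted p below 0.05 and none was higher, with 3 DEGs and a median log2FC of -0.83, while 12.9% of all genes passed in that direction. *Psph*, which completes serine synthesis from a glycolytic intermediate, was at 117 and 153 ppm in E, 51.2 and 46.8 ppm in M, and 32.8 ppm in both RE libraries (-2.02 in E vs. RE, limma adjusted p = 0.000411). *Shmt2*, of the mitochondrial one-carbon pathway like *Mthfd2*, was at 462 and 609 ppm in E, 389 and 363 ppm in M, and 184 and 219 ppm in RE, and both genes were lower in RE than in E (limma adjusted p = 0.00166 and 0.0018). *Pck2*, mitochondrial phosphoenolpyruvate carboxykinase, was at 176 and 196 ppm in E, 84.7 and 78.2 ppm in M, and 87.1 and 84.9 ppm in RE, and the transaminase gene *Gpt2* was at 92.0 and 176 ppm in E, 41.8 and 37.1 ppm in M, and 32.9 and 35.4 ppm in RE. Both passed as lower in M and in RE than in E (*Pck2* at limma adjusted p = 0.000392 and 0.00128, *Gpt2* at 0.00253 and 0.00299), as *Rpia* did, but neither passed in M vs. RE, where *Rpia* rose. *Adm*, *Gls2*, *Rbks*, *Slc2a4* and *Slc16a10* were also DEGs lower in RE than in E (-2.14, -1.48, -1.24, -2.02 and -1.51, limma adjusted p = 0.00179, 0.00191, 0.00645, 0.00584 and 0.00513).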

How the data were processed

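RNA of the E, M and RE stages of EpH4 cells was sequenced in 2 biological replicates each. The authors mapped unique reads with Bowtie and TopHat2 to NCBI-m37, and their processing notes also name edgeR; versions were not given in the sources used here. The values they deposited behave as coverage (signal), sequenced bases summed per gene with no normalization, and not as read counts, so that no count test was used. Each library totals 35782513 to 47928557 reads' worth of 50 bases. A gene with 150 bases or fewer, that is 3 reads' worth, was treated as at the floor. Depth covers counting error only. The p-values measure the spread between the 2 libraries of a state, pooled for each gene over the 3 states. The spread between the E libraries thus also enters M vs. RE. There 15 members passed an adjusted p of 0.05 in limma, and 30 with only the 2 states compared. DEGs over all genes tested went from 1789 to 2313 between these fits.

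Coverage was scaled with unweighted TMM factors (30% of log ratios and 5% of levels trimmed at each end; factors 0.871 to 1.12) to ppm in R 4.3.3. Testing was limited to the 13893 genes that reached 500 bases in 2 or more libraries. With limma 3.58.1, log2(ppm + 0.1) was modelled over all 6 libraries with group means and a trend on mean level, with Benjamini-Hochberg adjustment, which leaves 3 residual degrees of freedom. The fit was run on simulated data with the same spread in every gene and state and with large changes only. That run does not cover the unequal spread of the states or small folds. The members, related lists and tests were chosen with earlier results of these data known. Named with values were DEGs, members at an adjusted p below 0.01, genes too low to test, the gene of highest mean coverage in each group, isoenzyme pairs and related DEGs; other members were added for completeness of their pathway step after their values were seen.

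Shared sequence was measured by aligning each 50-base window of GENCODE M21 transcripts with bwa 0.7.19 at up to 2 mismatches. Promoters came from the RefSeq windows of GRCm38.p6, a newer build than the authors used, matched by symbol for 51 of the 53 members. *Pkm2* was matched to the GENCODE name *Pkm*. Alternatives changed 1 choice at a time, except that the removal of a GC and length trend was also run with the replicate block.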

Additional observations from a re-analysis of the deposited data

How the results depend on the processing

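The 6 DEGs kept their direction in the comparisons in which they were called under all 17 planned and 2 added alternatives. The latter were chosen after seeing the data (removal of a GC and length trend, alone or together with the replicate block). Other thresholds or filters, array weights, the replicate block and a fit of only the 2 states left the log2FC of a gene as it was. The direction could not change under those settings, so they add no support. Library totals in place of TMM factors moved the median of all genes to -0.29 for E vs. M, 0.18 for M vs. RE and -0.08 for E vs. RE. Under them the member medians were -0.41 in E vs. M and 0.26 in M vs. RE, and member DEGs in E vs. M numbered 7. DEGs over all genes tested went from 2358 to 2631 there. With a fold change of 1.5 member DEGs were 7 in E vs. M and 6 in E vs. RE. Members at an adjusted p below 0.05 in M vs. RE were 30 with only the 2 states compared and 27 with array weights, and in E vs. RE 8 with only the 2 states compared. DEGs over all genes tested moved the same way, from 1789 to 2313 and 2420 in M vs. RE and from 1302 to 678 in E vs. RE. The sign changed with library totals for *Aldoc* in E vs. RE (-0.0071), *G6pdx* in E vs. M (-0.24) and *Me1* in E vs. RE (-0.0062), and for *Pgls* in E vs. RE after GC and length removal (0.0015, with or without the block). Over all settings the sign of 17 of the 51 members changed for E vs. M, of 13 for M vs. RE and of 18 for E vs. RE, of which 0, 0 and 1 had passed an adjusted p of 0.05. The cause was not tested.

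Leaving out 1 library in turn gave 3 (without either M library, *Aldoc* lost) to 7 member DEGs for E vs. M, 2 to 5 for M vs. RE and 0 to 5 for E vs. RE. The 0 was without either RE library. The 2 in M vs. RE, *Pcx* and *Pdk2*, were without either M library or RE replicate 1, and without RE replicate 2 there were 3. Members at an adjusted p below 0.05 numbered 4 to 33, 6 to 30 and 2 to 31, lowest without M replicate 1 or RE replicate 1 and highest without an E library, and the member medians were -0.35 to 0.088, 0.017 to 0.10 and -0.27 to 0.012. *Aldoc* in E vs. RE ranged from -0.20 without E replicate 2 to 0.38 without E replicate 1. A state left with 1 library was assumed to vary like the others.

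The replicate numbers did not count as pairing: the deviations of same-numbered libraries correlated at 0.27, 0.058 and 0.12 for E and M, E and RE, and M and RE. With the replicate block, *Pfkl* became a DEG in E vs. M, which then had 5 member DEGs, and those in M vs. RE (5) and E vs. RE (3) were the same genes.

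Log2 ratios of isoenzymes with a member near the floor followed the pseudocount. With 0.025 ppm, *Ldha* to *Ldhb* was 8.90, 10.64 and 9.47 in E, M and RE, *Slc2a3* to *Slc2a1* was -9.16, -9.31 and -9.10, *Pdk4* to *Pdk1* was -6.18, -3.64 and -4.71, and *Eno2* to *Eno1* was -5.17 and -5.89 in E and M. With 1 ppm they were 7.12, 7.27 and 7.10, then -6.26, -6.85 and -6.06, then -3.89, -2.10 and -3.30, and -3.55, -3.26 and -2.93 in E, M and RE. With 1 ppm *Slc16a3* to *Slc16a1* was -6.34, -6.32 and -6.00, *Aldoc* to *Aldoa* was -4.70 and -6.10 in E and M, *Hk2* to *Hk1* was -1.53 in M and *Pdk1* to *Pdk2* was 1.15 in E. With library totals *Ldha* to *Ldhb* was 9.08 in RE.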
